A study of Canis lupus familiaris with 28 samples.

Results

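The comparison described here was of 3 cultured lines of canine histiocytic sarcoma (HS), named BD, OD and PJ, with 15 primary tumors whose disease state was given as HS, which together made 18 of the 28 libraries of the series. Members were taken from the sample labels alone, and the raw gene counts of the lines and of the tumors, deposited apart, were joined by Ensembl identifier. The question was what cultured HS cells lacked or gained relative to whole tumors. Total RNA of frozen tumor tissue from Bernese Mountain Dogs (BMDs) and RNA of cultured lines had been sequenced, and the other 10 libraries were 3 tumors of the hemophagocytic subtype (HHS), 1 normal dendritic cell strain (DC3F9, from a mongrel) and 6 unaffected controls, blood of BMDs and liver, lung and spleen of German Shepherd Dogs. The tumors came from lung (5), liver (3), spleen (2), thorax (2), a thoracic mass (1), a leg mass (1) and shoulder (1). BD and OD were derived from BMDs and PJ from a Rottweiler, each line was 1 library from 1 dog, and the lines grew in RPMI medium with fetal bovine serum. The labels used here gave no age, sex or genotype of the dogs.

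The groups differed in more than culture. The lines and DC3F9 were sequenced as a batch at Michigan State University and the tumors at the National Institutes of Health, and the study's methods name an mRNA kit for the lines where the labels name a total RNA kit with ribosomal and globin depletion for all samples. Sequencing site, kit and culture therefore went with the group and cannot be told apart from it. Breed differed only for PJ. The tumor pieces were judged by histology in the study to be mostly tumor tissue. In bulk RNA, fewer cells of a type and less RNA per cell cannot be told apart either.

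HS is a cancer of the macrophage and dendritic cell lineage, the cells that take up antigen and show it to T lymphocytes on MHC class II molecules. Class II genes in these cells are raised by the T cell cytokine interferon gamma, as are the immunoproteasome, the peptide transporter and a set of GTPases and transcription factors. A whole tumor also holds stroma: fibroblasts that secrete matrix, endothelium of vessels, infiltrating lymphocytes, blood and remnants of the host organ. A cell line holds the tumor cell alone, growing on plastic in serum.

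Levels are given as CPM, the counts of a gene scaled to a common library size after TMM adjustment, and fold changes as log2FC of the lines over the tumors with the standard error. A gene was called when the absolute log2FC exceeded 1.5 and the adjusted p-value was under 0.05. Statements below on every tumor are of the 15 HS tumors and leave out the HHS tumors. Total counts ran from 97419529 to 131518875 in the lines and from 99701394 to 171815073 in the tumors (median 141632958), and a level of 3 counts, taken as the detection floor, was 0.0175 to 0.0308 CPM. Distances were taken over the 500 genes most variable across the lines and tumors. That choice favors genes that differ between the 2 groups, and DC3F9 took no part in it. Euclidean distances between log2 CPM profiles were 63.0 to 68.4 among the lines, 67.5 to 134.7 among the tumors and 134.7 to 190.1 between a line and a tumor. DC3F9 was 91.5 to 98.7 from the lines and 114.1 to 165.7 from the tumors. The tumors HS14, HS27 and HS29 had the lowest TMM factors (0.736, 0.771 and 0.774) and held the lowest tumor value in 3051, 2074 and 3270 of 19970 genes. Without these 3 tumors 3343 genes were called, 1124 higher and 2219 lower.

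Of 19977 genes tested, 3482 (17.4%) were called, 1294 (6.48%) higher and 2188 (11%) lower in the lines. At an adjusted p-value under 0.05 with no fold threshold, 4583 genes (22.9%) differed, 2088 (10.5%) higher and 2495 (12.5%) lower. The median log2FC over all tested genes was -0.24. That centre moved with the scaling. It was 0.01 when library totals alone were used, which gave 1728 higher and 1855 lower calls, -0.05 with limma-voom, which gave 1781 and 1915, and -0.38 with upper-quartile factors, which gave 1039 and 2400. DESeq2 called 1263 genes higher and 3583 lower. A group of 173 tested genes had under 3 counts in every line and over 3 in every tumor, and 19 had the opposite pattern. Gene symbols were at hand for 1126 of 32704 identifiers, so the named genes below are the part of this contrast that could be read.

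**Figure D1:**
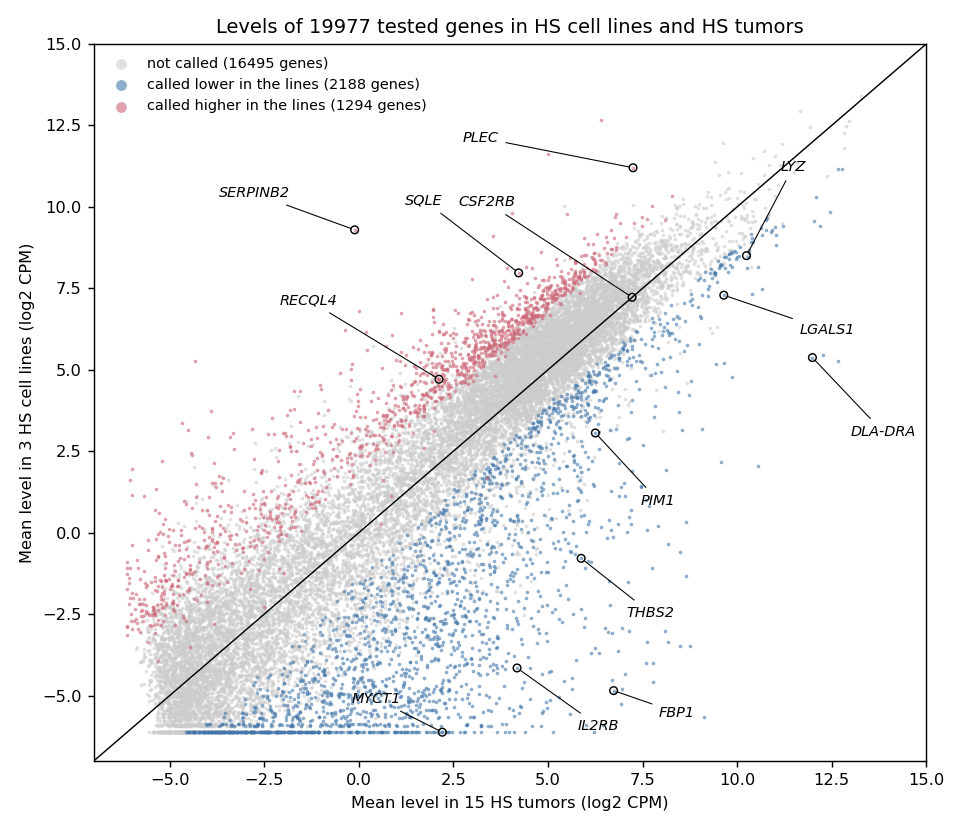
Mean level of each of the 19977 tested genes in the 15 HS tumors (horizontal axis, log2 CPM) against that in the 3 HS cell lines (vertical axis, log2 CPM), with genes called higher in red, lower in blue and not called in grey, and equal levels on the diagonal. The 2188 lower calls reach down to the floor of the lines, where MYCT1 lies, while CSF2RB sits near the diagonal.

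Named genes were ranked by log2FC among calls without overlap whose higher group had a mean of at least 3 log2 CPM. Within these limits the largest increase was that of SERPINB2, an inhibitor of urokinase made by activated monocytes and macrophages. BD, OD and PJ held 423, 513 and 739.6 CPM, and the tumors ran from 0.00734 (HS37) to 8.97 CPM (HS47) with a median of 0.855 (log2FC = 8.01 ± 0.90, adjusted p = 1.01e-05). The lines were alike and each stood above every tumor, and DC3F9 had 1.35 CPM. PLEC, the plectin that ties intermediate filaments to the cell cortex, was at 2761, 1651 and 1850 CPM in the lines and ran from 22.1 (HS50) to 861 CPM (HS52) with a median of 184 in the tumors (log2FC = 3.14 ± 0.62, adjusted p = 0.00149). DC3F9, at 772 CPM of PLEC, lay within the tumors. LRGUK (log2FC = 4.71 ± 0.71, adjusted p = 0.000168) and RTL6, a gene derived from a retrotransposon (log2FC = 3.77 ± 1.02, adjusted p = 0.0123), were higher from low tumor medians of 0.619 and 0.316 CPM. DC3F9 held 4.93 CPM of LRGUK and 11.4 CPM of RTL6, above every tumor for both and above every line for RTL6. Without OD the adjusted p-value of RTL6 was 0.0565, which ended its call. The unnamed identifiers ENSCAFG00000025377 (log2FC = 8.82 ± 0.96, adjusted p = 8.84e-06) and ENSCAFG00000011658 (log2FC = 8.01 ± 0.77, adjusted p = 2.77e-06) were the highest of the genes without a symbol within the same limits, and both were also present in DC3F9, at 44.6 and 14.8 CPM.

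MPDZ, a scaffold protein of cell junctions, had 0 counts in every line and ran from 2.13 (HS29) to 23.5 CPM (HS35) with a median of 8.70 in the tumors, so that the tumor median was at least 1164-fold higher than the floor of 3 counts over the lines (adjusted p = 7.13e-06). FBP1, the fructose bisphosphatase of gluconeogenesis, was at 0.00728, 0.0995 and 0 CPM in the lines against a range from 2.23 (HS51) to 1634 CPM (HS27) with a median of 280.3 in the tumors (log2FC = -13.29 ± 2.79, adjusted p = 0.00237). FBP1 is named among liver genes, and the normal liver held 988 CPM and the normal lung 10.1 CPM. The tumor with the most was from lung, and DC3F9 held 49.4 CPM. The source of FBP1 in the tumors was not tested. NDUFA4L2, a mitochondrial protein induced by low oxygen, was at 0.0582, 0.0995 and 0.0531 CPM in the lines and ran from 2.53 (HS48) to 474 CPM (HS14) with a median of 11.03 in the tumors (log2FC = -10.07, adjusted p = 0.00635). LY6E and FBLN1, also among the 5 lowest within these limits, are described with their groups. Of unnamed identifiers, ENSCAFG00000012963 had no count in any line and a tumor median of 109 CPM, at least 14570-fold higher. ENSCAFG00000014812 had 3 counts in all lines together and a tumor median of 779 CPM, a ratio of 104200-fold (95% counting interval 35650 to 505200). DC3F9 also held 0 CPM of MPDZ, NDUFA4L2, ENSCAFG00000012963 and ENSCAFG00000014812.

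MHC class II genes, a defining function of the lineage, were mostly lower in the lines. Of 8 class II genes tested, 6 were called lower and 0 higher, against 11% of all genes called lower, and the list's median log2FC was -5.07. In 5 of the 8 every line was below every tumor, a pattern that 7.74% of all tested genes showed. DLA-DRA, the alpha chain of the DR heterodimer, was at 340.1, 28.8 and 4.70 CPM in BD, OD and PJ. The tumors ran from 527 (HS29) to 20350 CPM (HS39) with a median of 4799. The lines thus spanned a range of their own, BD highest and PJ lowest, and none reached an HS tumor (log2FC = -5.60 ± 1.35, adjusted p = 0.00613). HLA-DRB1, the beta chain, followed the same order, at 304, 24.9 and 7.02 CPM against tumors from 945 (HS47) to 20850 CPM (HS14) with a median of 4729 (log2FC = -5.88 ± 1.24, adjusted p = 0.00242). HLA-DQB2 fell furthest, with 31.2, 1.71 and 0.832 CPM in the lines and a tumor median of 1535 CPM (log2FC = -7.57 ± 1.42, adjusted p = 0.00102). The HHS tumors, outside the comparison, ran from 239 to 5946 CPM of DLA-DRA and from 244 to 6590 CPM of HLA-DRB1. Their lowest values thus lay under BD for both genes. For HLA-DQB2 they ran from 31.7 to 2066 CPM, the lowest close to BD.

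Other genes of the class II route had the same direction, of which DLA-DMA and DLA-DQA1 were chosen for description after their values were seen. DLA-DMA, which loads peptide on class II molecules, was at 55.8, 3.48 and 2.35 CPM in the lines and ran from 116 (HS29) to 1263 CPM (HS14) with a median of 432 in the tumors (log2FC = -4.53, adjusted p = 0.00406). DLA-DOB, a modulator of DM that B cells express most, was at 0.247, 0.113 and 0.0177 CPM against a tumor median of 4.54 CPM (log2FC = -6.20, adjusted p = 0.00470). DLA-DQA1 was called on the full set, at 306, 14.7 and 2.88 CPM and ran from 81.8 (HS29) to 6533 CPM (HS39) with a median of 1351 (log2FC = -3.91 ± 1.40, adjusted p = 0.0489), but its groups overlapped, since BD lay above 2 tumors. The call of DLA-DQA1 ended without OD (adjusted p = 0.164) and without PJ (0.146), and without BD its log2FC was -7.55. Leaving out BD also deepened the log2FC of DLA-DRA to -8.53 and of DLA-DMA to -7.38. DLA-DOA (log2FC = -3.07 ± 1.12, adjusted p = 0.0534) and HLA-DPB1, named by its human homolog (log2FC = -1.94 ± 1.27, adjusted p = 0.278), were not called, and HLA-DPB1 was near the floor in both groups. DC3F9, sequenced with the lines, held 1846 CPM of DLA-DRA and 1299 CPM of DLA-DQA1, within the range of the tumors for both. It also lay within the tumors for HLA-DRB1 (1428 CPM) and HLA-DQB2 (382 CPM). For DLA-DMA (76.5 CPM) and DLA-DOB (0.356 CPM) it lay below every tumor. Near-identical class II copies may share reads. Against the 3 liver tumors alone only 2 class II genes, HLA-DQB2 and DLA-DOB, were called lower. DLA-DRA (adjusted p = 0.0621), HLA-DRB1 (0.0544), DLA-DMA (0.0706) and DLA-DQA1 (0.142) were not.

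Of 7 class I and peptide loading genes tested, 4 were called lower and 0 higher, beside 11% and 6.48% of all genes. The list's median log2FC was -2.31. PSMB8, a catalytic subunit of the immunoproteasome, was at 25.2, 0.988 and 1.42 CPM in the lines and ran from 81.1 (HS47) to 853 CPM (HS27) with a median of 304 in the tumors (log2FC = -5.17 ± 1.01, adjusted p = 0.00138). OD and PJ had almost none of it, BD more, and no line reached an HS tumor. The HHS tumors ran from 21.2 to 683 CPM of PSMB8, the lowest under BD. Without BD the log2FC of PSMB8 was -8.14. The class I heavy chain DLA-64 was at 178, 268 and 75.2 CPM against a range from 309 (HS47) to 5570 CPM (HS27) with a median of 1629 (log2FC = -3.49 ± 0.69, adjusted p = 0.00149). TAP1, which carries peptides into the endoplasmic reticulum, was at 83.9, 88.3 and 52.9 CPM against a range from 184 (HS47) to 738 CPM (HS39) with a median of 339 (log2FC = -2.31 ± 0.46, adjusted p = 0.00156). TAP1 was thus lower in every line than in the HS tumors but well expressed. The HHS tumors ran from 75.7 to 692 CPM of TAP1, the lowest under BD and OD. DLA88, the main polymorphic class I gene, was called (log2FC = -3.13 ± 1.03, adjusted p = 0.0349) with 14 of 15 tumors above all lines, and lost the call without any 1 line (adjusted p = 0.0785, 0.108 and 0.146 without BD, OD and PJ). TAP2, named by its human homolog (log2FC = -1.198 ± 0.47, adjusted p = 0.0722), and the loading chaperone TAPBP (log2FC = -0.94 ± 0.37, adjusted p = 0.0683) were not called. HLA-C, a class I gene named by its human homolog and described after its values were seen, was at 19.9, 15.99 and 8.05 CPM and ran from 0.940 (HS33) to 159.7 CPM (HS39) with a median of 3.07 in the tumors. Of the 15 tumors, 11 lay below every line and 3 above. HLA-C was not called (log2FC = -0.82 ± 1.57, adjusted p = 0.737). Against the 5 lung tumors alone it was called higher (log2FC = 2.78, adjusted p = 0.0204). Reads of the class I copies may be divided among them. DC3F9 lay below every tumor for PSMB8 (61.3 CPM) and TAP1 (104.6 CPM), and within the tumors for DLA-64 (1216 CPM) and DLA88 (712.5 CPM).

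Interferon response genes were mostly lower. Of 9 tested, 6 were called lower and 0 higher, beside 11% and 6.48% of all genes. The list's median log2FC was -3.43. IRF1, the transcription factor that interferon gamma induces, was chosen for description after its values were seen. IRF1 was at 27.6, 19.1 and 27.8 CPM in the lines and ran from 83.2 (HS14) to 761 CPM (HS50) with a median of 169.6 in the tumors, without overlap (log2FC = -3.43 ± 0.69, adjusted p = 0.00169). ETV7, an ETS repressor, also chosen after its values were seen, was at 11.2, 13.03 and 7.48 CPM against a range from 18.1 (HS35) to 150.5 CPM (HS50) with a median of 46.9 (log2FC = -2.39, adjusted p = 0.00504). For both genes HS50 was the highest tumor, as for 4 of the 9 genes in the list and for IFNG, described below. HS39 was the highest for IRGM and IFGGC1, and HS14, the lowest tumor for IFNG, was the highest for LY6E. A link between IFNG and these genes was not tested. LY6E, a surface protein that interferons raise, had 1 count in all lines together and ran from 1.35 (HS36) to 1288 CPM (HS14) with a median of 7.06 in the tumors. The tumor median of LY6E exceeded the lines 2830-fold (95% counting interval 508 to 111800), its fitted value of -14.79 (adjusted p = 0.0129) is no bound, and its call ended without any 1 line (adjusted p = 0.0641, 0.0631 and 0.0623).

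For IRGM, IFGGC1 and APOBEC3Z3 the lines differed among themselves, and OD had the highest values. The immunity related GTPases IRGM (named by its human homolog) and IFGGC1, which may share reads, were at 0.764, 20.2 and 1.91 CPM and at 0.786, 17.9 and 1.32 CPM, and the tumor medians were 39.8 and 37.5 CPM. OD lay within the tumors for both, while BD and PJ lay below all of them. The calls (log2FC = -3.75 ± 1.27, adjusted p = 0.0391 and log2FC = -4.10 ± 1.42, adjusted p = 0.0427) ended without BD (adjusted p = 0.140 and 0.152) and without PJ (0.151 and 0.157), and without OD the log2FC values were -6.30 and -6.80. The cytidine deaminase gene APOBEC3Z3 had the same order, at 0.131, 4.44 and 0.629 CPM against a range from 4.05 (HS14) to 45.5 CPM (HS50) with a median of 18.4 (log2FC = -3.54 ± 0.84, adjusted p = 0.00568), and -5.75 without OD. IFNGR1, a chain of the interferon gamma receptor, was at 135, 468 and 228 CPM in the lines and at a tumor median of 408 CPM (log2FC = -0.51 ± 0.52, adjusted p = 0.499), so its message was present in all 3, although BD lay below every tumor. SOD2, the mitochondrial superoxide dismutase, was at 273, 174 and 426 CPM, with OD the lowest line, and had a positive log2FC of 1.03 (adjusted p = 0.0409), under the fold threshold. DC3F9 lay below every tumor for IRF1 (70.85 CPM), ETV7 (5.17 CPM) and LY6E (0.185 CPM), and within the tumors for IRGM, IFGGC1 and APOBEC3Z3.

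**Figure D2:**
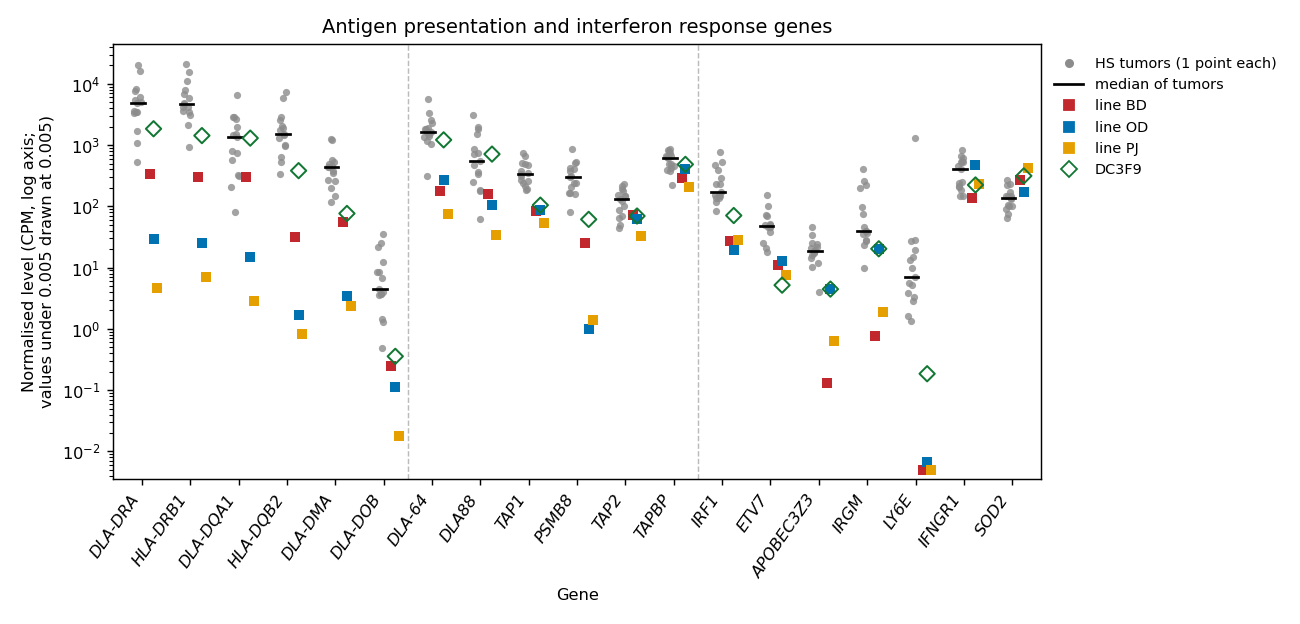
Levels (CPM, log axis) of class II genes (left), class I and peptide loading genes (middle) and interferon response genes (right) in each of the 15 HS tumors (grey, with the median as a bar), in BD, OD and PJ (squares) and in DC3F9 (open diamond). The lines lie under all tumors for DLA-DRA, HLA-DRB1, HLA-DQB2, DLA-DMA, DLA-DOB, DLA-64, TAP1, PSMB8, IRF1, ETV7 and LY6E, and overlap with them for the other genes drawn.

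Several lymphocyte genes were nearly absent from the lines. Of 8 tested, 4 were called lower and 0 higher, beside 11% and 6.48% of all genes, and the median log2FC was -4.01. IL2RB, the beta chain of the interleukin 2 receptor on T and NK cells, was at 0, 0.152 and 0.0443 CPM in the lines and ran from 2.26 (HS36) to 167 CPM (HS50) with a median of 21.6 in the tumors (log2FC = -8.90 ± 1.67, adjusted p = 0.00102). IFNG, interferon gamma itself, had 1 count in all lines together and ran from 0.0101 (HS14) to 14.6 CPM (HS50) with a median of 1.12 in the tumors, a ratio at the median of 449-fold (95% counting interval 80.6 to 17750) (adjusted p = 0.00784). THEMIS, needed for T cell selection, had 2 counts in the lines and ran from 0.0690 (HS36) to 5.44 CPM (HS50) with a median of 0.741, a ratio of 149-fold (95% counting interval 41.2 to 1228) (adjusted p = 0.00558). No line reached a tumor for IL2RB or THEMIS. For IFNG, PJ (0.00885 CPM) and HS14 were both under the floor, so their order is not resolved. LTA, lymphotoxin alpha, was called (log2FC = -2.84 ± 0.98, adjusted p = 0.0421) with values of 0.313, 0.179 and 0.248 CPM in the lines, and lost the call without any 1 line (adjusted p = 0.1099, 0.144 and 0.129). GRAP2, an adaptor of the T cell receptor that DC3F9 also held at 28.1 CPM, was at 1.11, 13.1 and 16.9 CPM in the lines and was not called (log2FC = -0.17 ± 0.61, adjusted p = 0.872). TNFRSF13C, the BAFF receptor of B cells, was not called either (log2FC = -0.85 ± 0.89, adjusted p = 0.511).

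The 9 lymphocyte genes at hand summed to 2.99, 15.01 and 19.8 CPM in BD, OD and PJ, to which GRAP2 gave 1.11, 13.1 and 16.9 CPM, and to 13.4 to 248 CPM in the tumors. HS50, a liver tumor, was the highest tumor for 7 of the 8 tested genes. The normal spleen, a lymphoid organ, held 134 CPM of IL2RB and 21.2 CPM of THEMIS. The part of lymphocytes in the lower class II and interferon values of the lines was not tested.

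Of 5 endothelial genes tested, 3 were called lower and 0 higher, beside 11% and 6.48% of all genes. The list's median log2FC was -3.50. MYCT1, a membrane protein of endothelium, had 0 counts in BD, OD, PJ and DC3F9 and ran from 1.24 (HS33) to 13.1 CPM (HS51) with a median of 6.36 in the tumors, and the tumor median was at least 850.4-fold higher than the floor over the lines (adjusted p = 1.97e-05). The normal lung held 218 CPM of MYCT1. NOTCH4, the Notch receptor of vessels, was at 0.182, 0.126 and 0.292 CPM against a range from 0.592 (HS33) to 23.98 CPM (HS4) with a median of 4.27 (log2FC = -4.98 ± 1.14, adjusted p = 0.00425). EGFL8, an EGF domain gene, was at 0.626, 0.338 and 0.372 CPM against a tumor median of 1.68 CPM (log2FC = -2.401 ± 0.77, adjusted p = 0.0306) and lost its call without any 1 line (adjusted p = 0.0711, 0.119 and 0.118). FLT4, the receptor of lymphatic vessels, named after its values were seen, differed widely between lines, at 0.0582, 0.902 and 4.37 CPM (log2FC = -3.50 ± 1.29, adjusted p = 0.0547), and was not called. PTPRB, the vascular tyrosine phosphatase, had a positive log2FC, at 27.3, 3.06 and 13.9 CPM in the lines against a tumor median of 5.18 CPM (log2FC = 1.52 ± 0.68, adjusted p = 0.107), and was not called. The 5 genes summed to 28.1, 4.43 and 18.9 CPM in the lines, of which PTPRB made most, and to 6.42 to 129 CPM in the tumors.

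Fibroblast and matrix genes had the most lower calls of any list by count, while the class II genes had the largest share, with 6 of 8. Of 17 tested, 10 were called lower and 1 higher, beside 11% and 6.48% of all genes, and the median log2FC was -7.33. In 9 genes every line was below every tumor, beside 7.74% of all tested genes. FBLN1, a fibulin of elastic and basement matrix, was at 0.0437, 0.0597 and 0 CPM in the lines and ran from 0.622 (HS48) to 401 CPM (HS27) with a median of 62.2 in the tumors (log2FC = -11.57 ± 2.25, adjusted p = 0.00134). WISP1, a matricellular protein of the CCN family, was at 0.00728, 0 and 0.0266 CPM and ran from 0.371 (HS39) to 42.5 CPM (HS52) with a median of 8.72 (log2FC = -9.99 ± 1.91, adjusted p = 0.00118). SMOC2, a calcium-binding matrix protein, was detected in OD alone among the lines, at 0.0995 CPM, and ran from 1.02 (HS39) to 76.8 CPM (HS14) with a median of 19.9 in the tumors (log2FC = -9.34 ± 1.78, adjusted p = 0.00113), and BD and PJ had 0 counts. ANGPT1, the angiopoietin that steadies vessels, had 1 count in the lines and a tumor median of 1.66 CPM, a ratio of 666-fold (95% counting interval 119.5 to 26300) (adjusted p = 0.000172).

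The other matrix calls were chosen for description after their values were seen. THBS2, a thrombospondin, was at 1.26, 0.511 and 0.177 CPM in the lines and ran from 5.56 (HS51) to 322 CPM (HS4) with a median of 94.3 in the tumors (log2FC = -7.33, adjusted p = 0.00154). ADAMTS2, which trims procollagen, was at 0, 0.159 and 0.0885 CPM against a range from 2.61 (HS33) to 31.9 CPM (HS4) with a median of 9.91 (log2FC = -7.23, adjusted p = 0.000214). CTHRC1 (log2FC = -8.45), FNDC1 (-7.35), PI16 (-8.33) and the laminin chain gene LAMA2 (-5.50) had adjusted p-values of 0.00304, 0.0110, 0.0217 and 0.0133. The call of PI16 ended without any 1 line (adjusted p = 0.0964, 0.0832 and 0.0787), that of FNDC1 without BD (0.0593) or OD (0.0546), and that of LAMA2 without OD (0.0666) or PJ (0.0701). HS4, a thoracic mass, was the highest tumor for THBS2, ADAMTS2, CTHRC1 and FNDC1. HS34, a leg mass, was the highest for PI16 (162 CPM), COL14A1 (97.8 CPM) and ENPP2 (331 CPM).

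Not all matrix genes were lower. BNC2, a zinc finger protein of mesenchymal cells, was at 30.3, 3.02 and 20.6 CPM against a range from 0.467 (HS29) to 14.97 CPM (HS35) with a median of 4.27 and was called higher (log2FC = 1.94 ± 0.66, adjusted p = 0.0385), although OD lay near the tumor median. The BNC2 call ended without BD (adjusted p = 0.297) and without PJ (0.148). ENPP2, the secreted phospholipase autotaxin, was at 12.1, 64.5 and 23.4 CPM in the lines (log2FC = -0.95 ± 0.94, adjusted p = 0.486), and COL14A1, a collagen, at 1.31, 12.3 and 6.003 CPM (log2FC = -1.899 ± 1.44, adjusted p = 0.353), and neither was called. Summed over 17 genes, the list came to 46.7, 83.5 and 80.8 CPM in BD, OD and PJ and 62.9 to 1141 CPM in the tumors.

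**Figure D3:**
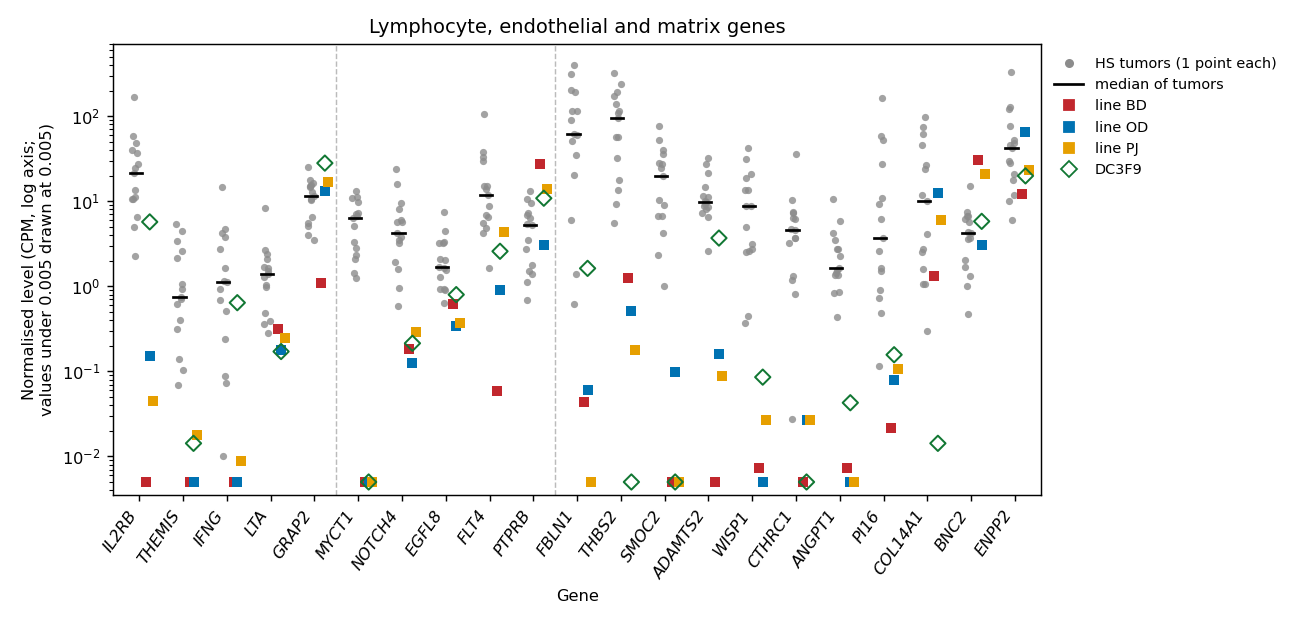
Levels (CPM, log axis) of lymphocyte genes (left), endothelial genes (middle) and fibroblast and matrix genes (right) in the 15 HS tumors (grey, with the median as a bar), the lines BD, OD and PJ (squares) and DC3F9 (open diamond), with values under 0.005 CPM drawn at 0.005. MYCT1 has 0 counts in all 3 lines, and GRAP2, PTPRB, BNC2 and ENPP2 overlap with the tumors.

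Of 13 hepatocyte genes tested, FBP1 alone was called (0 higher, 1 lower). Of 4 lung epithelium genes AGER alone was called, also lower, beside 11% of all genes called lower. HSD17B6, a steroid dehydrogenase (log2FC = -0.94 ± 0.72, adjusted p = 0.358), and SLC39A5, a zinc transporter named by its human homolog (log2FC = -0.48 ± 0.54, adjusted p = 0.542), were not called. HS33, a liver tumor, was the highest for 5 of the 13, and plasminogen (PLG), a liver product named after its values were seen, was at 71.3 CPM in HS33 against a tumor median of 0.00787 and 14560 CPM in normal liver. AGER, the receptor of flat alveolar cells, was at 1.805, 1.17 and 1.27 CPM in the lines against a range from 1.72 (HS14) to 51.4 CPM (HS47) with a median of 6.48 in the tumors (log2FC = -3.12 ± 1.05, adjusted p = 0.0385). HS47, the highest tumor for AGER, came from lung, the normal lung held 1634 CPM, and the call ended without any 1 line (adjusted p = 0.106, 0.130 and 0.130). SPDEF, a factor of secretory epithelium (adjusted p = 0.351), and ROS1, a receptor kinase (adjusted p = 0.205), were not called and were near or under the floor at the tumor median. The 15 hepatocyte genes at hand summed to 9.17, 15.2 and 16.7 CPM in the lines and 13.97 to 1655 CPM in the tumors, and the 4 lung genes to 1.805, 1.29 and 1.43 CPM and 2.64 to 53.3 CPM.

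Of 7 skeletal muscle genes, beside the same 11% of all genes called lower, TXLNB was called lower (log2FC = -7.31 ± 1.97, adjusted p = 0.0120), and its call ended without OD (adjusted p = 0.0621) or PJ (0.0597), while STAC3, a part of the calcium release machinery (log2FC = -0.10 ± 0.54, adjusted p = 0.913), and the myosin light chain gene MYL6B (log2FC = -1.099 ± 0.54, adjusted p = 0.145) were not called. Of 5 Schwann cell and melanocyte genes 0 were called, among them myelin basic protein, MBP (log2FC = 1.01 ± 0.41, adjusted p = 0.0771), and the neuregulin receptor ERBB3 (log2FC = -1.30 ± 0.85, adjusted p = 0.277). Of 2 red cell and platelet genes tested, MPIG6B, an inhibitory receptor of platelets, was called lower (log2FC = -3.28 ± 1.02, adjusted p = 0.0254) and lost the call without any 1 line (adjusted p = 0.117, 0.0991 and 0.0585). LY6G6F, another platelet surface gene named by its human homolog, had 0 counts in the lines and reached 10.9 CPM in the spleen tumor HS51 (adjusted p = 0.0580). The erythroid genes TRIM58 and TSPO2, named after their values were seen, were not tested for want of counts, had a tumor median of 0, and stood at 15.6 and 16.9 CPM in HS51.

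Genes of the macrophage and dendritic cell lineage were called in both directions. Of 21 tested, 3 were called higher (6.48% of all genes), 3 lower (11% of all genes) and 15 neither, and the median log2FC was -0.04. CSF2RB, the shared beta chain of the GM-CSF, interleukin 3 and interleukin 5 receptors, was at 80.2, 211 and 128 CPM in BD, OD and PJ and ran from 53.9 (HS14) to 434 CPM (HS52) with a median of 149 in the tumors. The lines lay inside the range of the tumors, with 5 tumors above all lines and 2 below (log2FC = -0.36 ± 0.50, adjusted p = 0.631). NCF4, a subunit of the phagocyte oxidase chosen after its values were seen, was at 117.7, 180.9 and 208 CPM against a tumor median of 74.3 CPM (log2FC = 0.68 ± 0.51, adjusted p = 0.339). CYTH4, an exchange factor of leukocytes, was at 98.04, 182 and 163 CPM against a range from 103 (HS4) to 521 CPM (HS39) with a median of 240.4 (log2FC = -0.84 ± 0.48, adjusted p = 0.205). LYZ, the lysozyme of macrophages, was strongly expressed in every line, at 447, 533 and 129.6 CPM, below 14 of the 15 tumors, which ran from 249 (HS35) to 9821 CPM (HS14) with a median of 1221, and was not called (log2FC = -2.35 ± 0.93, adjusted p = 0.0719).

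Higher calls in the lineage were TNFRSF11A, IRAK3 and STX11. TNFRSF11A, the receptor RANK through which osteoclast precursors respond, was at 36.1, 71.3 and 62.1 CPM in the lines and ran from 1.02 (HS27) to 23.99 CPM (HS35) with a median of 6.21 in the tumors (log2FC = 2.88 ± 0.54, adjusted p = 0.00102). IRAK3, a brake on Toll-like receptor signals, was at 15.4, 11.3 and 5.29 CPM against a range from 0.195 (HS29) to 4.94 CPM (HS35) with a median of 2.07 (log2FC = 2.28 ± 0.52, adjusted p = 0.00440), and STX11, a syntaxin of granule release, was at 45.5, 29.6 and 36.9 CPM against a range from 1.66 (HS29) to 22.8 CPM (HS51) with a median of 10.3 (log2FC = 1.802 ± 0.52, adjusted p = 0.0172). All 3 genes were higher in every line than in every tumor. DC3F9 held 49.3 CPM of STX11, above every line, and lay within the tumors for TNFRSF11A (17.6 CPM) and IRAK3 (4.47 CPM). The call of IRAK3 ended without BD (adjusted p = 0.0593), and that of STX11 without BD (0.106) or PJ (0.0668). DCSTAMP, the fusion protein of osteoclasts and dendritic cells, and TNF, the cytokine, were chosen after their values were seen. DCSTAMP was at 10.6, 5.41 and 49.3 CPM against a tumor median of 0.713 CPM (log2FC = 2.75 ± 1.16, adjusted p = 0.0893) and TNF at 70.6, 92.5 and 22.7 CPM against 21.5 CPM (log2FC = 1.57 ± 0.77, adjusted p = 0.144), and neither passed the test. DC3F9 held 193 CPM of DCSTAMP, above every line, and 3.97 CPM of TNF, below every line.

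Lower calls in the lineage were LTC4S, FGD2 and GPSM3, each without overlap. LTC4S, which makes leukotriene C4, was at 0.0873, 0.106 and 0.0885 CPM in the lines and ran from 0.787 (HS4) to 60.4 CPM (HS52) with a median of 7.46 in the tumors (log2FC = -7.60 ± 1.59, adjusted p = 0.00238). FGD2, an exchange factor for CDC42 in antigen-presenting cells, was at 4.93, 11.4 and 2.35 CPM against a range from 14.4 (HS47) to 362 CPM (HS27) with a median of 67.3 (log2FC = -4.41 ± 1.11, adjusted p = 0.00807, and 0.0529 without PJ, which ended the call). GPSM3, a regulator of G proteins in leukocytes, was at 10.5, 11.4 and 16.2 CPM against a range from 23.5 (HS35) to 276 CPM (HS27) with a median of 82.3 (log2FC = -2.92 ± 0.66, adjusted p = 0.00407). PARVG, the leukocyte parvin, was chosen after its values were seen as a gene that split the lines, at 0.0946, 8.18 and 0.328 CPM. OD lay inside the range of the tumors for PARVG and BD and PJ below it (log2FC = -3.44 ± 1.41, adjusted p = 0.0811).

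Lysosome genes did not move as a group. Of 10 tested, 2 were called lower and 0 higher, beside 11% and 6.48% of all genes. The list's median log2FC was -0.70. SMPDL3A, a phosphodiesterase abundant in macrophages, was at 1157, 573 and 928 CPM in the lines and ran from 116 (HS51) to 6006 CPM (HS48) with a median of 971 in the tumors (log2FC = -0.83 ± 0.85, adjusted p = 0.503), and the tetraspanin CD63 was at 329.9, 286 and 318 CPM against a range from 258 (HS33) to 3708 CPM (HS14) with a median of 741 (log2FC = -1.67 ± 0.67, adjusted p = 0.0751). Neither was called. LAPTM4B, a lysosomal membrane protein, had 2 counts in the lines and a tumor median of 0.454 CPM, a ratio of 91.04-fold (95% counting interval 25.2 to 752) (adjusted p = 0.0128, and 0.0636 without OD and 0.0652 without PJ). LGALS1, galectin-1, a lectin of macrophages and stroma, was at 185, 96.4 and 139 CPM in the lines and ran from 256 (HS33) to 2429 CPM (HS29) with a median of 792 in the tumors (log2FC = -2.76 ± 0.58, adjusted p = 0.00238). Each line had less LGALS1 than each tumor, and DC3F9, at 1153 CPM, lay with the tumors.

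**Figure D4:**
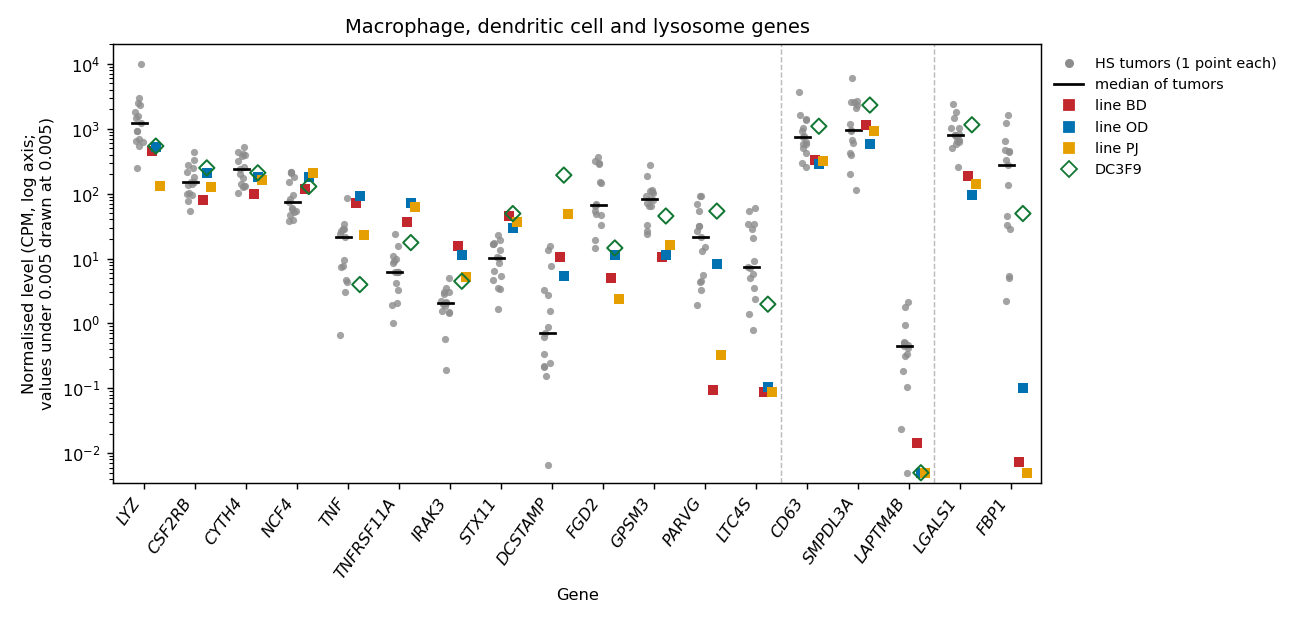
Levels (CPM, log axis) of macrophage and dendritic cell genes (left), lysosome genes (middle) and LGALS1 and FBP1 (right) in the 15 HS tumors (grey, with the median as a bar), BD, OD and PJ (squares) and DC3F9 (open diamond). CSF2RB, CYTH4, NCF4 and SMPDL3A overlap between lines and tumors, TNFRSF11A, IRAK3 and STX11 lie above all tumors, and LTC4S, FGD2, GPSM3, LGALS1 and FBP1 lie below them.

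Genes of DNA replication and repair differed by small amounts. Of 18 tested, 3 were called higher and 0 lower, beside 6.48% and 11% of all genes. A positive log2FC was seen in 16, and the median was 0.57 beside -0.24 over all genes. RECQL4, a helicase of origin firing, was at 21.5, 34.2 and 15.7 CPM in the lines and ran from 1.79 (HS48) to 8.91 CPM (HS52) with a median of 4.85 in the tumors (log2FC = 2.31 ± 0.36, adjusted p = 0.000210). ATAD2, a bromodomain cofactor of E2F and MYC, was at 413, 283 and 317 CPM against a range from 34.3 (HS29) to 169.8 CPM (HS35) with a median of 84.4 (log2FC = 2.002 ± 0.33, adjusted p = 0.000346). PRIM1, the catalytic primase subunit, named by its human homolog, was at 36.2, 26.9 and 32.4 CPM against a range from 1.47 (HS27) to 21.1 CPM (HS48) with a median of 10.2 (log2FC = 1.61 ± 0.50, adjusted p = 0.0248), and lost its call without any 1 line (adjusted p = 0.114, 0.0629 and 0.0904). Every line exceeded every tumor for all 3, and for 6 of the 18 genes, beside 7.27% of all tested genes. CDK4 (log2FC = -0.74 ± 0.41, adjusted p = 0.196) and MDC1, a damage mediator (log2FC = 0.64 ± 0.27, adjusted p = 0.0894), were not called. CDK2, MTBP and RAD50, named after their values were seen, had adjusted p-values of 0.0480, 0.00649 and 0.0349 with log2FC values of 1.198, 1.15 and 0.86, under the fold threshold.

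Of 13 mitosis genes tested, 0 were called, beside 6.48% of all genes called higher. The list had 28 members, and those without an identifier, among them FOXM1, AURKA, AURKB and PLK1, were not analysed. Of the 13 tested, 12 had a positive log2FC, and the median was 0.56. With no fold threshold 2 were higher, beside 10.5% of all genes. These were FBXO5 and CENPM (log2FC = 1.13, adjusted p = 0.0303), the latter named after its values were seen. FBXO5, an inhibitor of the anaphase-promoting complex, was at 36.5, 54.9 and 35.5 CPM in the lines and ran from 7.92 (HS27) to 34.3 CPM (HS48) with a median of 16.2 in the tumors, so that every line was above every tumor, but its log2FC of 1.22 ± 0.34 (adjusted p = 0.0138) was under the fold threshold. KIF20A, a kinesin of the central spindle named after its values were seen, was at 73.8, 51.7 and 46.8 CPM against a tumor median of 28.2 CPM (log2FC = 1.15 ± 0.49, adjusted p = 0.0953). The cohesin subunit gene RAD21 (log2FC = 0.55 ± 0.35, adjusted p = 0.258) and lamin B1, LMNB1 (log2FC = 0.40 ± 0.34, adjusted p = 0.418), were not called. TUBB, a beta tubulin with near-identical paralogs, was at 855, 545 and 622 CPM against a tumor median of 779.9 CPM (log2FC = -0.16 ± 0.31, adjusted p = 0.741). DC3F9, a normal strain, held 2.46 CPM of FBXO5 and 1.44 CPM of KIF20A, below every line and every tumor for both.

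All 3 sterol genes had a positive log2FC and 2 were called higher, beside 6.48% of all genes. SQLE, squalene epoxidase, the oxygen-dependent step of cholesterol synthesis, was at 368, 307 and 91.1 CPM in the lines and ran from 3.90 (HS37) to 78.1 CPM (HS35) with a median of 17.8 in the tumors (log2FC = 3.28 ± 0.56, adjusted p = 0.000499). SREBF2, the transcription factor that switches on this pathway, was at 271, 243 and 122 CPM against a range from 15.2 (HS48) to 126 CPM (HS52) with a median of 57.1 (log2FC = 1.69 ± 0.38, adjusted p = 0.00417, and 0.0523 without BD, which ended the call). PJ was the lowest line for both. ACAT2, which condenses acetyl-CoA, was at 137, 78.4 and 68.3 CPM and was not called (log2FC = 0.80 ± 0.32, adjusted p = 0.0707). DC3F9 held 102 CPM of SQLE, above all tumors, and the normal liver held 408.

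Of 9 genes of serine, one-carbon and amino acid synthesis, 1 was called higher and 0 lower, beside 6.48% and 11% of all genes. The list's median log2FC was 0.88. MTHFD1L, the mitochondrial enzyme that releases formate, was at 226, 175 and 257 CPM in the lines and ran from 23.1 (HS51) to 136.4 CPM (HS36) with a median of 59.8 in the tumors, without overlap (log2FC = 1.69 ± 0.40, adjusted p = 0.00556). PSAT1 (log2FC = 1.65 ± 0.65, adjusted p = 0.0711) and SHMT2 (log2FC = 0.90 ± 0.43, adjusted p = 0.132), which make and split serine and were named after their values were seen, were not called. ATF4, the stress factor that drives these genes (log2FC = -0.44 ± 0.44, adjusted p = 0.495), and XPOT, the exportin of transfer RNA (log2FC = 0.78 ± 0.27, adjusted p = 0.0432), were not called. Of 14 ribosome assembly genes, 1 was called higher and 0 lower, beside 6.48% and 11% of all genes. The called gene was RRP7A, an assembly factor of the small subunit, at 28.01, 39.3 and 49.9 CPM in the lines. The tumors ran from 5.42 (HS48) to 31.7 CPM (HS50) with a median of 12.9 (log2FC = 1.53 ± 0.36, adjusted p = 0.00478, and log2FC = 1.28 without PJ, adjusted p = 0.0563, which ended the call). LTV1, named by its human homolog (log2FC = 1.49 ± 0.29, adjusted p = 0.00154), and POP1 (log2FC = 1.496 ± 0.28, adjusted p = 0.00109), both named after their values were seen, were just under the fold threshold. DCAF13 (log2FC = 0.52 ± 0.26, adjusted p = 0.148) and WDR46 (log2FC = -0.46 ± 0.34, adjusted p = 0.333) were not called, and the list's median log2FC was 0.14.

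Immediate early genes split. Of 10 tested, 1 was called higher and 2 lower, beside 6.48% and 11% of all genes. The list's median log2FC was 0.97. PIM1, a kinase that cytokine receptors induce through STAT factors, was at 11.5, 4.52 and 7.17 CPM in the lines and ran from 44.7 (HS52) to 139 CPM (HS39) with a median of 75.6 in the tumors (log2FC = -3.43 ± 0.45, adjusted p = 4.57e-05). PIM1 was below every tumor in every line, and DC3F9, at 32.5 CPM, also lay below every tumor. NAB2, the repressor of EGR factors, was at 21.7, 21.7 and 29.6 CPM against a range from 36.6 (HS51) to 283 CPM (HS14) with a median of 71.1 (log2FC = -1.75 ± 0.50, adjusted p = 0.0171) and lost its call without any 1 line (adjusted p = 0.0757, 0.0775 and 0.0504). CITED2, a coactivator modulator, was at 57.9, 31.9 and 73.1 CPM against a range from 1.49 (HS27) to 42.7 CPM (HS51) with a median of 6.90 (log2FC = 2.399 ± 0.61, adjusted p = 0.00888, and 0.0700 without PJ, which ended the call). EGR1, a read-out of MAPK signaling, was at 186, 347 and 219 CPM and ran from 15.1 (HS33) to 436 CPM (HS51) with a median of 51.4, and was not called (log2FC = 1.49 ± 0.64, adjusted p = 0.0981). The spleen tumor HS51 alone lay above the lines for EGR1, and without HS51 the log2FC was 1.92 with an adjusted p-value of 0.00713, past both thresholds. MYC was at 172, 110.4 and 159.9 CPM against a range from 22.3 (HS34) to 125 CPM (HS51) with a median of 68.5 (log2FC = 1.04 ± 0.37, adjusted p = 0.0475), under the fold threshold, and TRIB1, a pseudokinase, was not called (log2FC = -0.66 ± 0.58, adjusted p = 0.430). NFATC1, a factor of T cells and osteoclasts, was at 66.2, 62.5 and 55.3 CPM, above every tumor (log2FC = 1.37 ± 0.46, adjusted p = 0.0382), and was also under the fold threshold. DC3F9 held 124 CPM of NFATC1, above every line.

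Among 8 tumor suppressor and amplicon genes, 2 were called lower and 0 higher, beside 11% and 6.48% of all genes. NDRG1, a gene of stress and low oxygen, was at 99.1, 24.4 and 19.4 CPM in the lines and ran from 89.4 (HS33) to 1142 CPM (HS52) with a median of 273 in the tumors (log2FC = -3.11 ± 0.86, adjusted p = 0.0142), and its call ended without OD (adjusted p = 0.0770) or PJ (0.0804). PTP4A3, a phosphatase of migrating and vascular cells, was at 0.0728, 0.0663 and 0.142 CPM against a range from 0.250 (HS33) to 18.5 CPM (HS4) with a median of 1.63 (log2FC = -5.33 ± 1.48, adjusted p = 0.0140), and its call ended without BD (0.0708) or OD (0.0664). MDM2, the ligase that holds p53 down, was at 90.1, 170.3 and 65.5 CPM against a tumor median of 96.4 CPM (log2FC = 0.09 ± 0.39, adjusted p = 0.896), and the chromatin protein HMGA1 at 210, 267 and 179 CPM against 159.8 CPM (log2FC = 0.18 ± 0.46, adjusted p = 0.801). Neither was called.

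**Figure D5:**
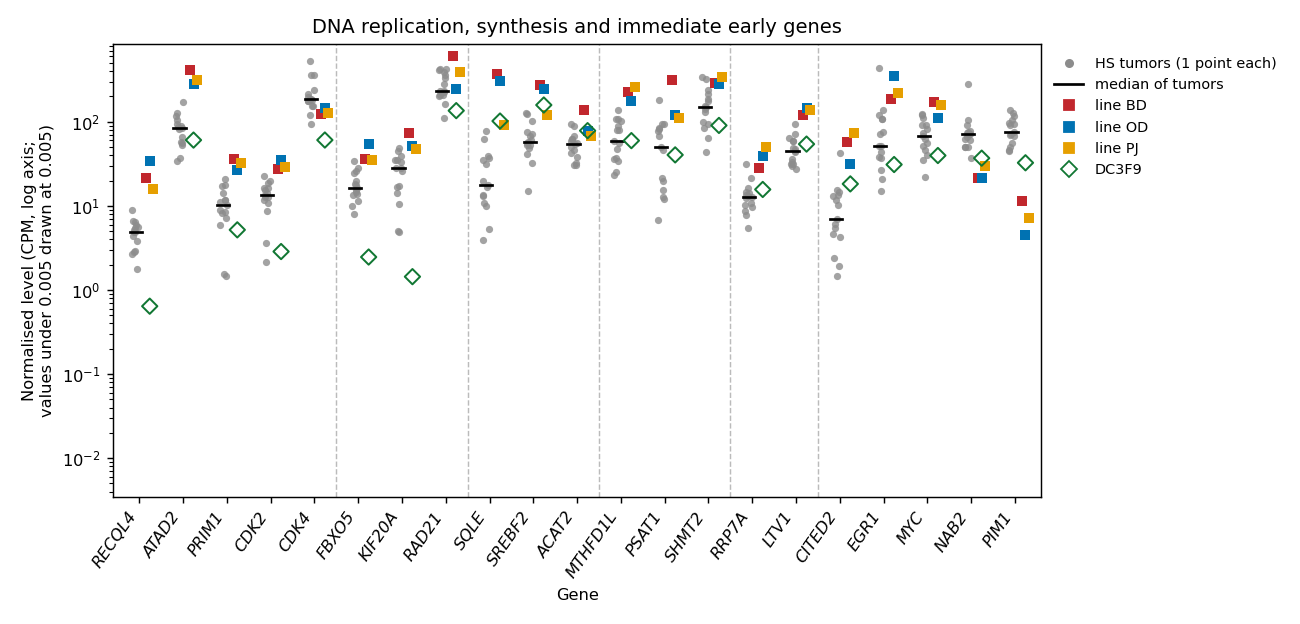
Levels (CPM, log axis), from left to right, of DNA replication, mitosis, sterol, one-carbon and serine, ribosome assembly and immediate early genes in the 15 HS tumors (grey, with the median as a bar), BD, OD and PJ (squares) and DC3F9 (open diamond). RECQL4, ATAD2, PRIM1, FBXO5, SQLE and MTHFD1L lie above all tumors in the 3 lines, RAD21 and CDK4 overlap with them, and PIM1 and NAB2 lie below.

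DC3F9 gives a view of what lines and tumors shared with a normal dendritic cell strain sequenced beside the lines, as levels of 1 library with no test. Over all 19977 tested genes, its log2 CPM was nearer to the mean of the lines in 51.6% and nearer to that of the tumors in the rest. For genes called lower in the lines it was nearer to the lines in 1433 of 2188 (65.5%), and for genes called higher in 713 of 1294 (55.1%). DC3F9 was nearer to the lines for 3 of 3 endothelial and 8 of 10 matrix genes called lower, for 4 of 6 interferon response genes called lower, and for 2 of 2 sterol genes called higher. It was nearer to the tumors for 5 of 6 class II genes, 3 of 4 class I and peptide loading genes and 2 of 3 macrophage and dendritic cell genes called lower, and for 2 of 3 macrophage and dendritic cell and 3 of 3 replication genes called higher. What share of each contrast went with culture, site or kit was not tested.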

How the data were processed

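RNA-seq of 28 canine libraries was used, 18 of them in the comparison. Per the labels and the study's methods, the authors trimmed reads with cutadapt 3.7, aligned them with STAR 2.7.10a to CanFam3.1 and counted them per Ensembl gene with HTSeq 2.0.0, and deposited raw counts in separate tables for lines and tumors. The annotation release and strand option are not given in the sources used here. The tables held the same 32704 identifiers. Symbols came from the study's supplementary tables (1126 identifiers, 101 of them by human homolog only), and 147 members of the 20 gene lists had no identifier and were not analysed. Genes with low counts were removed, libraries were TMM-scaled, and lines were compared with tumors by edgeR 4.0.16 quasi-likelihood tests (R 4.3.3) with Benjamini-Hochberg adjustment over all 19977 genes. All adjusted p-values in the text are of this test unless another tool is named. A line counted as 1 replicate. Nothing in the labels says more than that libraries were separate samples, so p-values measure the spread between them. Counting intervals (95%, exact Poisson) and the floor of 3 counts cover counting error only. The closest pair of libraries, OD and PJ, differed far beyond counting noise. The test was tested on simulated data. Members and lists were chosen with earlier results of these data known. Named genes were the 5 largest calls in each direction among named genes without overlap whose higher group had a mean of at least 3 log2 CPM, up to 4 called genes per direction and 2 uncalled genes per list, genes of the lineage and its known alterations, and up to 2 unnamed identifiers per direction within the same limits, and any other gene is said to be chosen after its values were seen. The values of 1 gene are not reported here. DESeq2 1.42.0 and limma 3.58.1 served as alternatives.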

Additional observations from a re-analysis of the deposited data

How the results depend on the processing

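No paired analysis was possible because no label or replicate number pairs a line with a tumor. Whether BD or OD came from the dog of a tumor is not stated. Against the 3482 calls (1294 higher, 2188 lower), Benjamini-Yekutieli adjustment gave 1350 (598 and 752), an adjusted p under 0.0005 gave 424 (196 and 228), a test against a log2FC of 1.5 gave 1217 (240 and 977), the 3 liver tumors alone gave 1203 (353 and 850), the 5 lung tumors alone gave 697 higher, and DESeq2 gave 3583 lower. Leaving out 1 line gave 2168 to 2437 calls, 846 to 1002 higher and 1322 to 1435 lower. Of 69 called genes followed across the fits, 42 were called in all 3 of these fits and 10 in none. Of 125 genes followed, the call was lost at an adjusted p under 0.0005 in 55, with Benjamini-Yekutieli adjustment in 32, in the test against a log2FC of 1.5 in 28, without a line in 18 to 22, with limma-voom in 9, with library totals in 8 and with DESeq2 in 1, and a call was gained with limma-voom in 7, with DESeq2 in 6 and with library totals in 4. The call was lost in 29 of 119 genes against liver tumors and in 11 of 122 against lung tumors.

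Among genes named in the text, the sign changed only in genes that were not called in the comparison of all 18 libraries. GRAP2 was at 0.10 with library totals, 0.071 against lung tumors, 0.337 without BD and -0.74 without PJ. ENPP2 was at 0.042 against lung tumors, COL14A1 at 1.27 against liver tumors and CSF2RB at 0.044 against liver tumors. STAC3 was at 0.18 with library totals, 0.16 with limma-voom, 0.25 against liver tumors, 0.16 against thorax, leg and shoulder tumors and 0.064 without HS14, HS27 and HS29. LMNB1 was at -0.094 against liver tumors. HMGA1 was at -0.20 against liver tumors, -0.21 against thorax, leg and shoulder tumors, -0.016 without OD and 0.274 without PJ. MDM2 was at -0.10 against lung tumors, -0.24 against thorax, leg and shoulder tumors, -0.054 with upper-quartile factors, -0.43 without OD, 0.315 without PJ and -0.108 without HS14, HS27 and HS29. TUBB was at 0.10 with library totals and 0.004 against lung tumors. HLA-C was at 0.959 with DESeq2, 1.49 with limma-voom, 2.73 against liver tumors and 2.78 against lung tumors, where it was called. The cause of these changes was not tested.

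The fits without HS14, HS27 and HS29 and without HS37 and HS51 together were chosen after seeing the data. At 97419529 or more counts per library, depth limited only genes near the floor, and the 3 lines limited the precision of the rest.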

Other observations

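Of the 173 tested genes with under 3 counts in every line and over 3 in every tumor, 13 had a symbol, and 3 of these (MPDZ, MYCT1 and SMO) had 0 counts in every line. They were picked by this pattern, so it is a description. SMO is the signal transducer of the Hedgehog pathway, which stromal cells use. TNFRSF11B, among the 13, is osteoprotegerin, the secreted decoy for the ligand of RANK, and the gene of RANK itself, TNFRSF11A, was called higher in the lines. The others not described above were AVPR1A, a vasopressin receptor, BIK, a cell death protein, PDE10A, a phosphodiesterase, and PRR16, SHISAL1 and SLC26A8. The 19 genes of the opposite pattern included 0 with a symbol.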
